A study of Homo sapiens with 6 samples.

Results

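The genes described are 43 members of the human systems that copy-edit and mend DNA, taken from a table of 32364 Ensembl genes by matching each row's identifier to a symbol in GENCODE release 29. They fall into 6 mismatch repair genes, 18 genes of homologous recombination, 10 Fanconi genes (those with a FANC symbol) and 9 checkpoint genes. All 43 were in the table. The samples were 6 mRNA sequencing libraries of Kasumi-1, an established acute myeloid leukemia cell line of the M2 subtype that carries the t(8;21) translocation. In 3 libraries the cells had been kept with 0.5 µM I13, an inhibitor of histone deacetylases (HDACs), for 48 h. In the other 3 they had been kept for 48 h with the control, which per the study's methods was the solvent DMSO at the concentration present in the I13 solution. All 6 libraries came from the 1 line, with no genetic change between the groups, so that any difference is a difference within Kasumi-1. The paper speaks of independent experiments for its data, this sequencing included, whereas the labels give the libraries only replicate numbers and do not name separate cultures. The p-values measure the spread between these libraries. Values are FPKM, which divide a gene's fragments by its exon length and by the depth of the library. The length that recovered whole fragments here merges all annotated exons of a gene, from 2412 bases in FANCL to 23972 in ATM. It can exceed the length of the transcript made, so levels and ratios between genes depend on the annotation and are approximate.

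Mismatch repair finds bases that were paired wrongly during replication. A MutS pair of proteins recognizes the mismatch, a MutL pair nicks the new strand, and the nuclease EXO1 removes it. Homologous recombination mends a broken chromosome from its sister copy, with trimming of the ends by MRE11, RAD50, NBN and RBBP8, strand exchange helped by BRCA2, XRCC2 and RAD51D among others, and resolution by helicases such as BLM. The Fanconi proteins unhook crosslinks between DNA strands through a core complex that attaches ubiquitin to FANCD2 and FANCI, and the checkpoint kinases ATM and ATR, with CHEK2 and CHEK1 below them, hold the cell cycle while repair takes place. Many of these genes are transcribed most in cells that replicate their DNA, and E2F factors are well known regulators of that program.

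Promoter sequences show one feature that many of these genes share. The windows, from RefSeq on build GRCh38.p14, run from 250 bases before to 50 bases after each annotated start, and 39 of the 43 members had one. The letters of an E2F-like site, taken as TTCCCGC or as TTGGCGC or as TTGGCGG, were searched on both strands. The last pair share their first letters and cannot both match at the same place on a strand. At least 1 match was in 23 of 39 members (59.0%), against 23.4% of the 9474 protein-coding genes tested for expression that had a window and 14.3% of all 27305 genes with one. By window, 29 of 55 member windows and 12.1% of 35116 windows held a match. Matches were in 3 of 6 mismatch repair members, 10 of 16 recombination members, 6 of 9 Fanconi members and 4 of 8 checkpoint members. A match is a run of letters and not a measured site.

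For 3 recombination genes, 2 of them helicases and the other a DNA translocase, the match lay wholly in the last 100 bases before the start, a stretch with few bases under any annotated exon. They are shown so that the letters can be seen in place. The stretches, read 5′ to 3′ on the gene's strand with the match in capitals, are BLM (chr15:90717246-90717345, plus strand), RAD54L (chr1:46247588-46247687, plus strand) and BRIP1 (chr17:61863529-61863628, minus strand), all on GRCh38.p14.
BLM: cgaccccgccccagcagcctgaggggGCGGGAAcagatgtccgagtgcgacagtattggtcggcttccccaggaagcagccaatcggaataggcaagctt
RAD54L: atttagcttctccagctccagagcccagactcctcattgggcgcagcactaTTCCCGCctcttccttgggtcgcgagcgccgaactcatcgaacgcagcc
BRIP1: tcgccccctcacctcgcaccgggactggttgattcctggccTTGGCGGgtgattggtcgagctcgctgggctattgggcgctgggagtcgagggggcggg
The match begins 74 bases before the start in BLM, 49 bases before it in RAD54L and 59 bases before it in BRIP1. In BLM it is the reverse complement of TTCCCGC, in RAD54L it is TTCCCGC itself and in BRIP1 it is TTGGCGG.

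The libraries held between 15281052 and 17221345 mapped fragments, as recovered from the steps of the FPKM values. The genes listed as markers of Kasumi-1 were present in all 6. They were MPO (10200 to 12400 FPKM), ELANE (2190 to 2640 FPKM), KIT (196 to 236 FPKM), CD34 (38.3 to 45.9 FPKM), CD33 (10.8 to 13.7 FPKM) and RUNX1T1 (12.5 to 14.4 FPKM). Of the markers of other cells reported here, the fibroblast gene COL1A1 was at 0 fragments in every library, the T cell gene CD3E reached at most 0.106 FPKM, the endothelial gene CDH5 at most 0.0389 FPKM, and the epithelial gene EPCAM was at 20.8 to 26.5 FPKM. Control replicate 3 and I13 replicate 2 stood apart from the other 4 libraries along the first principal component (43.3% of the variance over 4133 genes), and the second component (20.5%) separated the groups. Values are therefore also given between the 4 other libraries, 2 a group, and within the pair, 1 library a group.

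All 43 genes were detected in every library at low to moderate levels. Their mean levels ran from 0.628 FPKM for RAD50 to 18.9 FPKM for TOPBP1, with a median of 5.09 FPKM, against 2.22 FPKM for the 18726 genes that passed a minimum mean of 0.1 FPKM. The group medians were close to each other, at 5.85 FPKM for mismatch repair, 4.32 FPKM for recombination, 4.5 FPKM for the Fanconi genes and 5.88 FPKM for the checkpoint genes. The 3 genes under 1 FPKM, RAD50, RAD51B and RAD54B, were all recombination genes. Every member passed the filter on low values in both groups, so that none entered only through the group where it was higher.

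**Figure D1:**
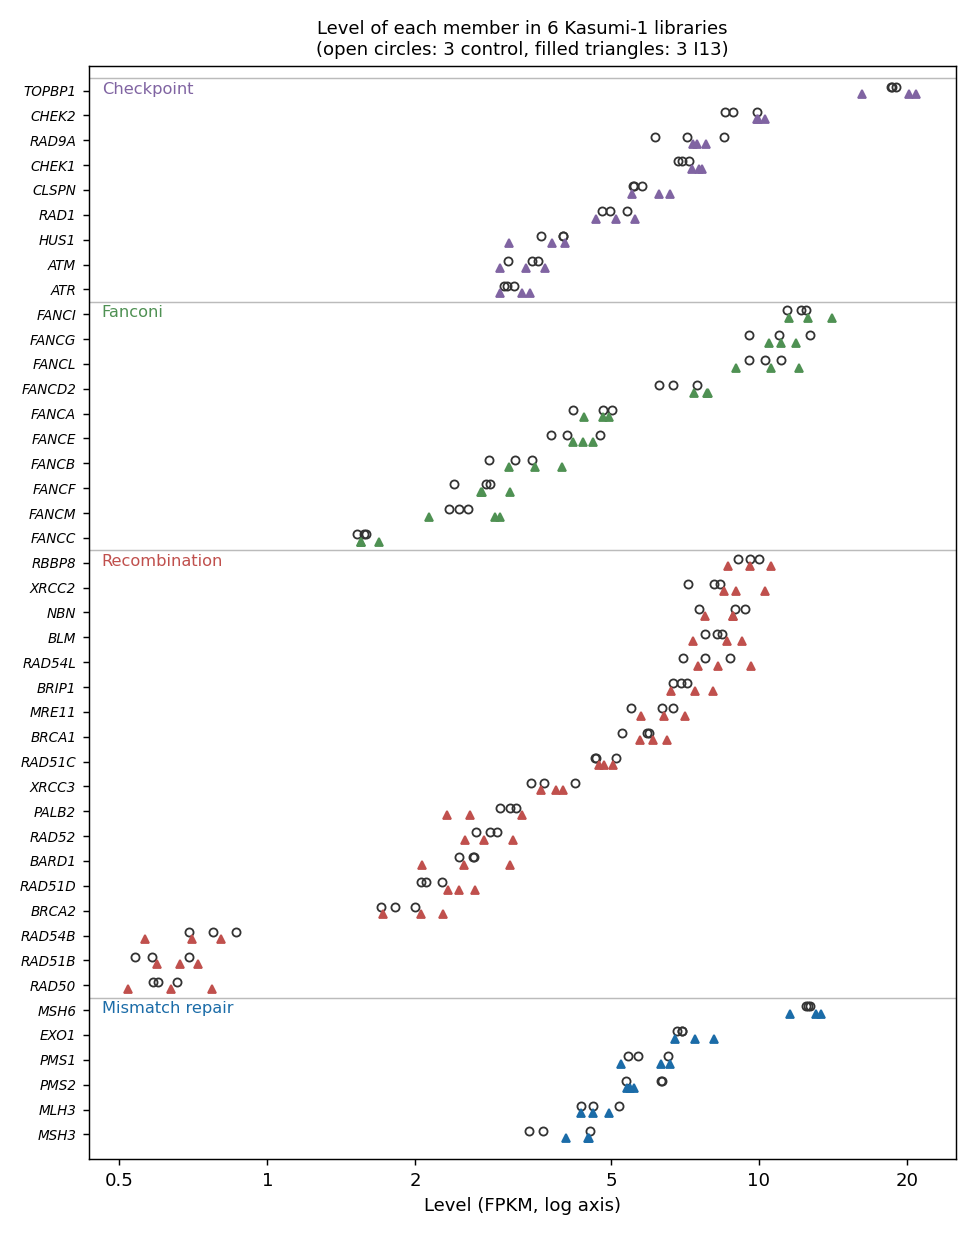
Level of each member in FPKM on a log axis, with 3 control libraries as open circles and 3 I13 libraries as filled triangles, grouped by role and ordered by mean level. The circles and triangles of most genes interleave, and the levels run from RAD50, RAD51B and RAD54B under 1 FPKM to TOPBP1 at 16.2 to 20.9 FPKM.

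The comparison of I13 with control asks which transcripts differ after 48 h with the inhibitor. For the repair genes differences were small: fitted changes on the log2(FPKM + 0.1) scale lay between -0.19 and 0.23, with a median of 0.05. By limma, no member passed an adjusted p of 0.05 (smallest 0.947 by limma over the 18726 genes), and neither did any gene of the whole table (0.0% of 18726). The study lists raised and lowered genes from this sequencing, under its own cutoffs for significance and size of change. The whole-table result by limma therefore differs from the study's, and the cause of this difference was not tested. At an unadjusted p of 0.05, limma called 1 of 43 members higher, XRCC2, where 2.55% of all genes tested were called higher, and 0 of 43 lower, where 2.59% were. Limma's voom on the recovered fragments called 3 of 43 higher (XRCC2, RAD51D and FANCD2) against 2.56% of 13806 genes, 0 lower against 2.8%, and 0 at an adjusted p (smallest 0.768 by voom) against 0.0362%. In 4 of 43 members, XRCC2, RAD51D, CHEK1 and CHEK2, all 3 I13 libraries were above all 3 control libraries, as in 4.88% of all genes, and in 0 of 43 they were all below, as in 4.64%. With 3 libraries against 3, the smallest p of a two-sided exact permutation test is 0.1, which is the value for each of these 4 genes.

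The data also bound how large a change could have been. The 95% interval of the fitted change lay within 0.58 either way, a change of 1.5-fold, in 41 of 43 members (95.3%). The same was true of 54.1% of all genes tested and of 85.7% of those with a mean of at least 1 FPKM. The exceptions were RAD54B, whose interval ran from -0.63 to 0.32 on 50 to 76 fragments a library, and RAD51B, whose upper end lay at 0.58 on 68 to 90 fragments. In bulk RNA a change in the share of cells that express a gene and a change in RNA per cell cannot be told apart.

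The fitted change was above 0 in 34 of 43 members, against 51.8% of all genes tested, and the median of all genes tested was 0.0058. This count rested in part on single libraries. It was 24 without I13 replicate 3, and between 28 and 37 without any other single library. Between the 4 other libraries 35 of 43 were above 0, with a median of 0.08, whereas within the pair 19 of 43 were, with a median of -0.01.

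**Figure D2:**
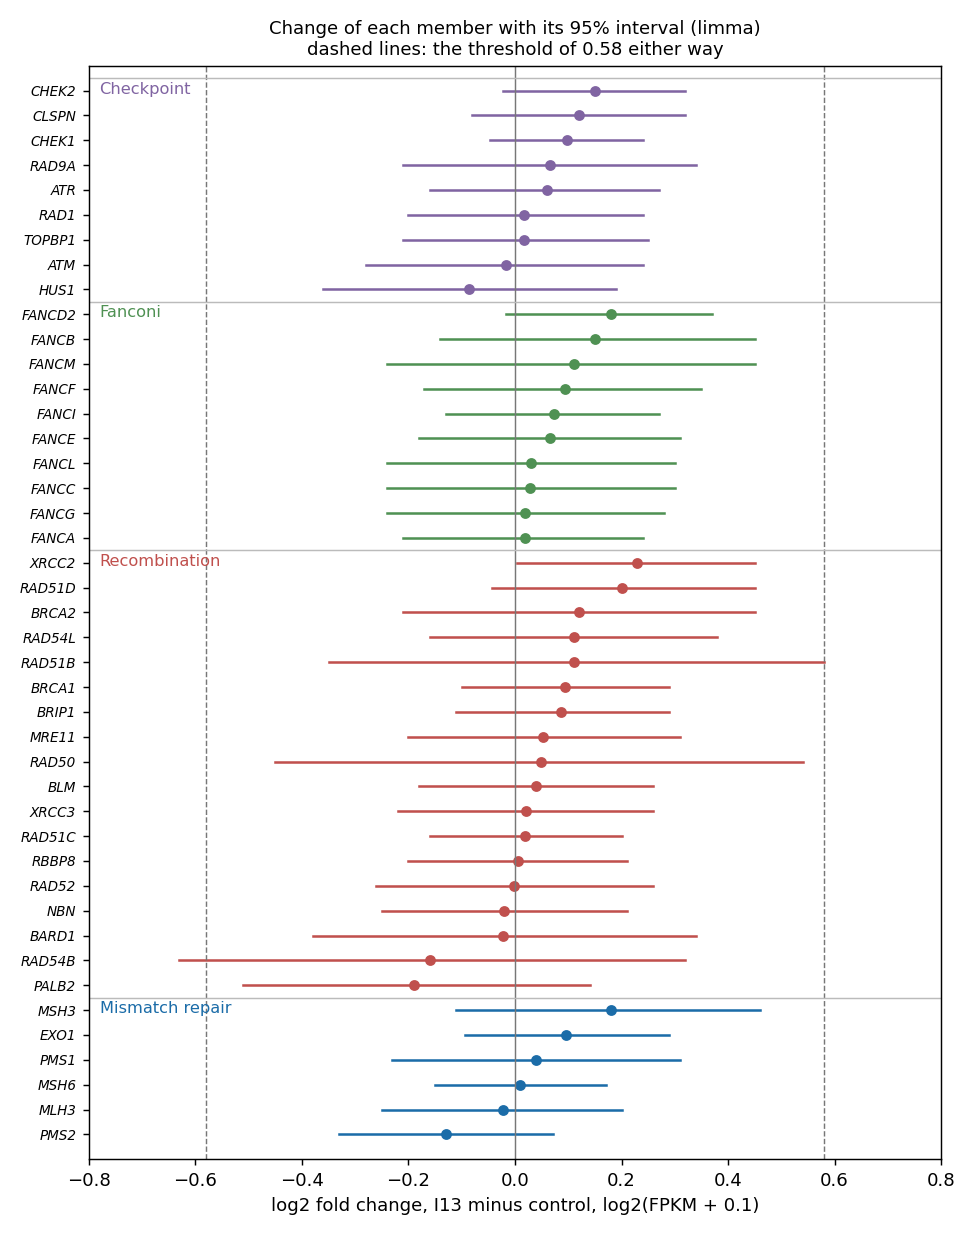
Change of each member between I13 and control on the log2(FPKM + 0.1) scale, with the limma estimate as a point and its 95% interval as a bar, and dashed lines at 0.58 either way. The interval of XRCC2 alone does not include 0, that of RAD54B crosses the lower dashed line, and that of RAD51B ends at the upper one.

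The 6 mismatch repair genes had fitted changes between -0.13 and 0.18 with a median of 0.02, and none passed an unadjusted p of 0.05 by limma or by voom. MSH6 and MSH3 are the alternative partners of the main MutS protein, MSH6 for single mismatches and MSH3 for larger loops. MSH6 was at 12.5, 12.6 and 12.7 FPKM in the control libraries and at 13.1, 11.6 and 13.4 FPKM in the I13 libraries. Its groups overlapped, and with 2130 to 2373 fragments a library the interval of its fold was narrow, from 0.901 to 1.12. MSH3 was at 3.64, 4.53 and 3.41 FPKM in the control libraries and at 4.51, 4.05 and 4.5 FPKM in the I13 libraries, a log2 change of 0.18 (SE 0.12, interval -0.11 to 0.46). Control replicate 2 was above every I13 library, and the other control libraries were below them. Without control replicate 2 the log2 change was 0.30, at an unadjusted p of 0.0279 by limma, and without control replicate 3 it was 0.10. The level of MSH6 was 3.32 ± 0.489 times that of MSH3 in the control libraries and 2.92 ± 0.0502 times in the I13 libraries (SD, n = 3 each, two-sided exact permutation p = 0.4).

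The MutL genes PMS2, PMS1 and MLH3 encode the 3 partners of the shared MutL subunit, of which PMS2 forms the nicking complex of mismatch repair. PMS2 was at 6.36, 6.31 and 5.37 FPKM in the control libraries and at 5.46, 5.56 and 5.39 FPKM in the I13 libraries. The log2 change was -0.13 (SE 0.086, interval -0.33 to 0.071), and control replicate 3 was the lowest library of all. Without control replicate 3 it was -0.21 at an unadjusted p of 0.0236 by limma, and between the 4 other libraries it was -0.22 at 0.0179 by limma. PMS2 (chr7:5973239-6009125 in GENCODE 29) has 10 copies by name in the table, whose likeness in sequence was not examined. Together they held 605 to 764 fragments a library, against 324 to 431 for PMS2 itself. How the authors' counting shared reads among them is not known, so the PMS2 level is uncertain.

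PMS1 was at 5.67, 6.53 and 5.43 FPKM in the control libraries and at 6.31, 5.24 and 6.61 FPKM in the I13 libraries. MLH3, a MutL subunit used mainly in meiosis, was at 5.2, 4.6 and 4.35 FPKM in control and at 4.96, 4.35 and 4.6 FPKM in I13. Both genes overlapped between the groups, with log2 changes of 0.04 (interval -0.23 to 0.31) for PMS1 and -0.02 (interval -0.25 to 0.2) for MLH3. EXO1, the exonuclease that removes the mismatched strand and also trims broken ends, was at 6.98, 6.97 and 6.82 FPKM in control and at 7.42, 6.76 and 8.11 FPKM in I13. I13 replicate 2 was below every control library while the other two I13 libraries were above them all, and the log2 change was 0.10 (SE 0.08, interval -0.093 to 0.29).

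Among the 18 recombination genes the fitted changes ran from -0.19 for PALB2 to 0.23 for XRCC2, with a median of 0.04. XRCC2 and RAD51D, which bind each other in a complex that helps strand exchange, had the highest fitted changes of the group. XRCC2 (chr7:152644779-152676165) was at 7.19, 8.32 and 8.12 FPKM in the control libraries and at 8.97, 8.5 and 10.3 FPKM in the I13 libraries. The groups did not overlap, with 0.176 FPKM between the highest control and the lowest I13 library. Its means were 7.88 ± 0.603 and 9.26 ± 0.936 FPKM (SD, n = 3 each) on 601 to 764 fragments a library, a log2 change of 0.23 (SE 0.095, interval 0.0045 to 0.45). The limma p was 0.0466 unadjusted and 0.947 adjusted, and by voom they were 0.021 and 0.768.

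The XRCC2 call did not hold under every setting. By limma the unadjusted p was 0.15 without control replicate 1, 0.0511 without control replicate 2, 0.0653 without control replicate 3, 0.0725 without I13 replicate 1 and 0.152 without I13 replicate 3. The log2 change stayed between 0.15 and 0.31 in these and all other fits. Between the 4 other libraries it was 0.31 and within the pair it was 0.06.

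RAD51D (chr17:35092208-35121522) was at 2.1, 2.05 and 2.27 FPKM in the control libraries and at 2.33, 2.46 and 2.64 FPKM in the I13 libraries. The groups did not overlap, by a gap of 0.0586 FPKM. The log2 change was 0.20 (SE 0.1, interval -0.043 to 0.45), with an unadjusted p of 0.0916 by limma and 0.0394 by voom (adjusted 0.962 and 0.878). XRCC2 was 3.69 ± 0.332 times as high as RAD51D in control and 3.74 ± 0.246 times in I13 (SD, n = 3 each, two-sided exact permutation p = 0.9). The size of this ratio depends on the annotated exon lengths, 4853 bases for XRCC2 and 11304 for RAD51D. The related genes RAD51C, XRCC3 and RAD51B did not pass either test, with log2 changes of 0.02 for RAD51C, 0.02 for XRCC3 and 0.11 for RAD51B. XRCC3 shares 76.7% of its exon bases with KLC1 on the other strand, so that its level also depends on whether reads were counted by strand. The same limit holds on smaller shares for RAD54L (25.1%), FANCA (23.6%), FANCL (19.7%), ATR (16.4%), MSH6 (16.2%) and FANCF (11.3%).

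The genes that trim broken ends did not pass either test. RBBP8, the recombination gene with the highest mean and the partner that starts the trimming, was at 10, 9.59 and 9.09 FPKM in control and at 10.6, 8.64 and 9.61 FPKM in I13. MRE11, the nuclease, was at 6.69, 6.36 and 5.49 FPKM in control and at 6.4, 5.76 and 7.09 FPKM in I13. NBN, which links the complex to ATM, was at 8.94, 9.38 and 7.57 FPKM in control and at 8.85, 7.77 and 8.87 FPKM in I13. For these 3 genes the groups overlapped, the log2 changes were 0.0050, 0.05 and -0.02, and the intervals stayed between -0.25 and 0.31. In each of them control replicate 3 and I13 replicate 2 were the lowest libraries.

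RAD50, the ATPase that holds the ends together with MRE11 and NBN, had the lowest mean of all members. It was at 0.654, 0.584 and 0.599 FPKM in control and at 0.636, 0.521 and 0.77 FPKM in I13, on 85 to 115 fragments a library. MRE11 was 10.1 ± 0.87 times as high as RAD50 in control and 10.1 ± 0.923 times in I13 (SD, n = 3 each, two-sided exact permutation p = 1.0). In GENCODE 29, RAD50 (chr5:132556019-132646344) has 79.7% of its exon bases under exons of AC116366.3 on the same strand, and that gene was listed at 0 fragments in all 6 libraries. Over its unshared bases alone, the same fragments would give RAD50 a mean of 3.09 FPKM. RAD54B, a DNA translocase, has 59.1% of its exon bases under FSBP on the same strand, a gene with 1 to 9 fragments a library, and its mean would be 1.79 FPKM over unshared bases. Whether reads on the shared bases were left out of the counts was not tested, and the levels of these members are uncertain. The other 41 members have under 10% of their exon bases under same-strand exons of another gene, with 8.87% in RAD51D. RAD51B, the other member under 1 FPKM, overlaps no other gene's exons.

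BRCA1 and BARD1 form a ubiquitin ligase that acts early at breaks. BRCA1 was at 5.92, 5.99 and 5.27 FPKM in control and at 5.74, 6.1 and 6.51 FPKM in I13. BARD1 was at 2.62, 2.46 and 2.63 FPKM in control and at 3.11, 2.06 and 2.51 FPKM in I13. Both overlapped, and I13 held both the highest and the lowest BARD1 library. The ratio of BRCA1 to BARD1 was 2.23 ± 0.216 in control and 2.46 ± 0.563 in I13 (SD, n = 3 each, two-sided exact permutation p = 0.6). PALB2, which joins BRCA1 to BRCA2, had the lowest fitted change of all members, -0.19 with an interval from -0.51 to 0.14. It was at 2.98 to 3.2 FPKM in control and at 2.32 to 3.29 FPKM in I13, and without I13 replicate 1 it was -0.33 at an unadjusted p of 0.0268 by limma. BRCA2, which acts in strand exchange, had a log2 change of 0.12 (interval -0.21 to 0.45). The helicases BRIP1 and BLM, the translocase RAD54L and the annealing protein RAD52 had log2 changes of 0.09, 0.04, 0.11 and -0.0019, and none passed either test.

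The Fanconi group holds only the 10 members with a FANC symbol. BRCA1, BRCA2, PALB2, BRIP1, RAD51C and XRCC2 also count as Fanconi genes but were filed under recombination. Their log2 changes were 0.09, 0.12, -0.19, 0.09, 0.02 and 0.23. All 10 genes of the group had a fitted change above 0, where 51.8% of all genes tested did. They ran from 0.02 for FANCA to 0.18 for FANCD2, with a median of 0.07. The count rested on single libraries: it was 7 of 10 without I13 replicate 3, 8 without I13 replicate 2, control replicate 1 or control replicate 3, 8 between the 4 other libraries and 7 within the pair. Of the 10 genes, 0 passed an unadjusted p of 0.05 by limma and 1, FANCD2, by voom. FANCD2 and FANCI form the pair that the core complex marks with ubiquitin. FANCD2 (chr3:10026414-10101930) was at 6.27, 7.49 and 6.69 FPKM in control and at 7.39, 7.86 and 7.87 FPKM in I13, on 904 to 1099 fragments. Control replicate 2 lay above I13 replicate 1, and the other control libraries lay below all I13 libraries. The means were 6.82 ± 0.622 and 7.71 ± 0.273 FPKM (SD, n = 3 each), and the log2 change was 0.18 (SE 0.082, interval -0.016 to 0.37). The unadjusted p was 0.0671 by limma and 0.0389 by voom (adjusted 0.951 and 0.875). The change was similar between the 4 other libraries (0.15) and within the pair (0.23).

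FANCI, the Fanconi gene with the highest mean, was at 12.2, 12.5 and 11.4 FPKM in control and at 12.6, 11.5 and 14.1 FPKM in I13. Its groups overlapped, and FANCI was 1.78 ± 0.153 times as high as FANCD2 in control and 1.65 ± 0.173 times in I13 (SD, n = 3 each, two-sided exact permutation p = 0.5). FANCC, a core complex gene with the lowest mean FPKM of the group, was at 1.57, 1.59 and 1.52 FPKM in control and at 1.55, 1.69 and 1.55 FPKM in I13. The other core genes FANCA, FANCB, FANCE, FANCF, FANCG and FANCL, and the translocase FANCM that recruits the complex, had log2 changes from 0.02 to 0.15, and each interval included 0. FANCL, the ubiquitin ligase subunit, and FANCG were the most abundant of them, near 10.3 and 11.1 FPKM in control.

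Of the 9 checkpoint genes, 7 had a fitted change above 0, with a median of 0.06 and a range from -0.09 for HUS1 to 0.15 for CHEK2. The count was 9 of 9 between the 4 other libraries, with a median of 0.11, and 2 of 9 within the pair, with a median of -0.04. With 1 library left out it ran from 5 of 9, without I13 replicate 3, to 9 of 9, without I13 replicate 2, and the median was lowest without I13 replicate 1, at 0.02. Of all genes tested, 51.8% were above 0. The effector kinases CHEK1 and CHEK2 were the members of this group whose libraries did not overlap. CHEK1 (chr11:125625136-125676255), the kinase below ATR, was at 6.98, 7.22 and 6.85 FPKM in control and at 7.31, 7.56 and 7.65 FPKM in I13. The log2 change was 0.10 (SE 0.061, interval -0.046 to 0.24) at an unadjusted p of 0.154 by limma. CHEK2 (chr22:28687743-28742422), the kinase below ATM, was at 8.54, 9.9 and 8.86 FPKM in control and at 9.96, 10.3 and 9.91 FPKM in I13. The gap between its groups was 0.00134 FPKM, under the value of 1 fragment, and the log2 change was 0.15 (interval -0.022 to 0.32) at an unadjusted p of 0.0793 by limma. In neither gene was the change past the threshold by limma or by voom.

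The kinases above them were lower in FPKM, a level that depends on the annotated exon length. ATR was at 3.17, 3.03 and 3.07 FPKM in control and at 3.43, 2.98 and 3.29 FPKM in I13, a log2 change of 0.06. CHEK1 was 2.27 ± 0.0974 times as high as ATR in control and 2.33 ± 0.203 times in I13 (SD, n = 3 each, two-sided exact permutation p = 0.7). ATM had a log2 change of -0.02 (interval -0.28 to 0.24). TOPBP1, the activator of ATR and the most abundant member, was at 18.6, 19.0 and 18.7 FPKM in control and at 20.2, 16.2 and 20.9 FPKM in I13. I13 replicate 2 was below all control libraries and the other two I13 libraries were above them, so that the log2 change was 0.02 over all libraries and 0.13 between the 4 other libraries, where it passed the unadjusted threshold by limma. CLSPN, the adaptor between ATR and CHEK1, had a log2 change of 0.12 (interval -0.081 to 0.32).

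RAD1, RAD9A and HUS1 form the clamp that is loaded at damaged DNA. RAD1 was at 5.39, 4.99 and 4.8 FPKM in control and at 5.11, 4.67 and 5.6 FPKM in I13. RAD9A was at 6.14, 7.14 and 8.48 FPKM in control and at 7.49, 7.33 and 7.8 FPKM in I13, and HUS1 was at 3.99, 3.6 and 3.99 FPKM in control and at 4.04, 3.1 and 3.79 FPKM in I13. The groups overlapped for all 3 subunits, and RAD9A was 1.45 ± 0.314 times as high as RAD1 in control and 1.48 ± 0.0893 times in I13 (SD, n = 3 each, two-sided exact permutation p = 0.9).

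Mismatch repair and the other 3 roles could be set side by side on the same scale. The median log2 change was 0.02 for the 6 mismatch repair genes and 0.05 for the other 37. The spread between replicates of a role's median level is given as an SD (log2). It was 0.093 for mismatch repair, 0.085 for recombination, 0.065 for the Fanconi genes and 0.068 for the checkpoint genes. The median changes beside it were 0.024 for mismatch repair, 0.044 for recombination, 0.069 for Fanconi genes and 0.06 for checkpoint genes. The SD is that of single libraries and not the error of a difference between group means. It therefore does not test these changes. No spread was computed for the 37 genes together. With 1 library left out, the mismatch repair median ran from -0.02, without I13 replicate 3, to 0.11, without I13 replicate 2. The recombination median ran from 0.0079 to 0.11 without the same libraries, and the Fanconi median from 0.04, without control replicate 3, to 0.12, without I13 replicate 2. Above 0 were 4 of 6 mismatch repair genes and 30 of the other 37. Between the 4 other libraries the medians were 0.08 for mismatch repair and 0.08 for the rest, and within the pair they were -0.0067 and -0.01.

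**Figure D3:**
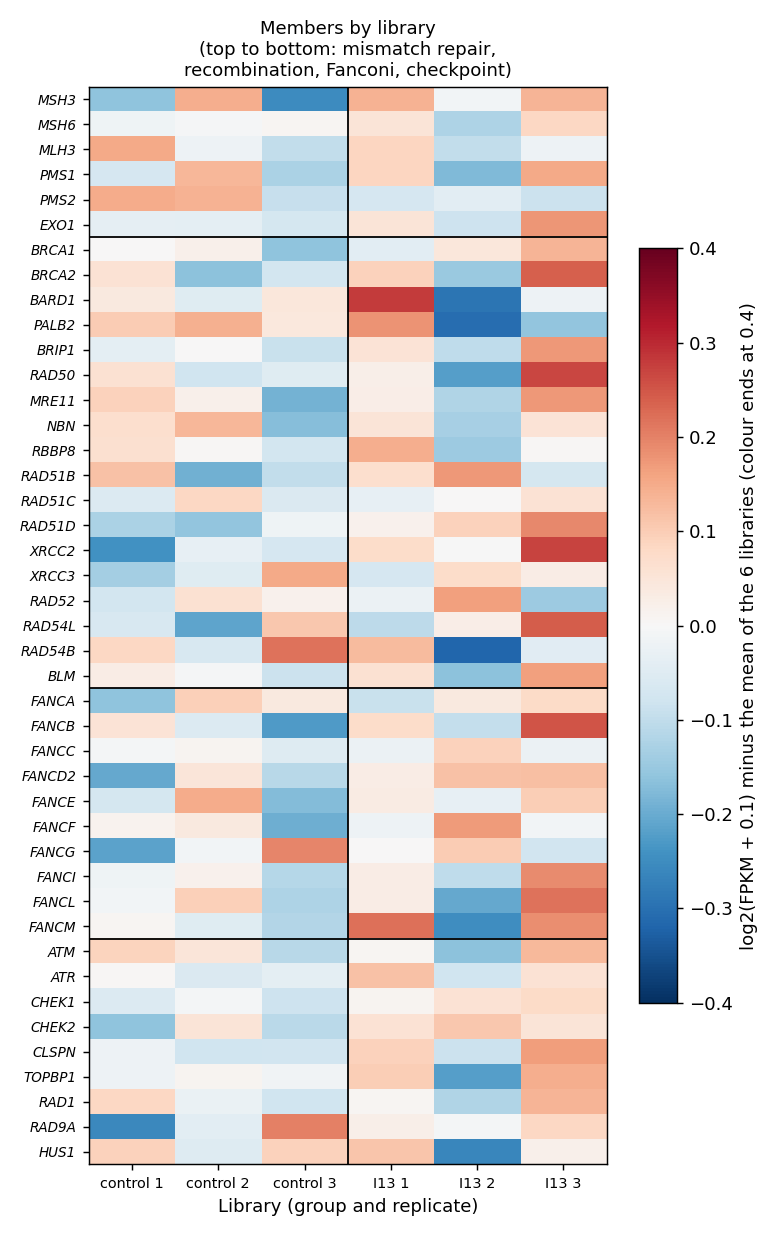
Each member's log2(FPKM + 0.1) in each library minus its mean over the 6 libraries, with members in rows by role and libraries in columns, and the group border as a vertical line. The columns of control replicate 3 and I13 replicate 2 are blue for most members, and that of I13 replicate 3 is red for most, while no block of rows differs in color across the border as a whole.

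Many members varied with the library pair. Control replicate 3 and I13 replicate 2 were the lowest of the 6 libraries in 14 of 43 members (32.6%), against 17.0% of all genes tested and 23.3% of those with a mean of at least 1 FPKM. They were MLH3, PMS1 and EXO1 in mismatch repair, BRIP1, MRE11, NBN, RBBP8 and BLM in recombination, FANCB, FANCI, FANCL and FANCM among the Fanconi genes, and ATM and RAD1 in the checkpoint. In 2 members, XRCC3 and FANCG, the pair held the highest levels. The log2 difference between the pair and the other 4 libraries ran from -0.27 for FANCM to 0.23 for FANCG, beside the range of -0.19 to 0.23 between I13 and control, and its median was -0.12.

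This difference varied with base composition. The GC content of the longest coding transcript ran from 36.3% to 62.5% over the members, with a median of 42.2%, against a median of 48.4% over 9678 protein-coding genes with a mean of at least 1 FPKM. Over the 43 members it had a Pearson r of 0.76 and a Spearman rho of 0.74 with the difference between the pair and the other libraries, and over the 9678 genes these were 0.70 and 0.74. The points are genes of the same 6 libraries and not replicates. With the change between I13 and control the GC content of the members had an r of 0.03 and a rho of 0.09. The pair holds 1 library of each group.

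**Figure D4:**
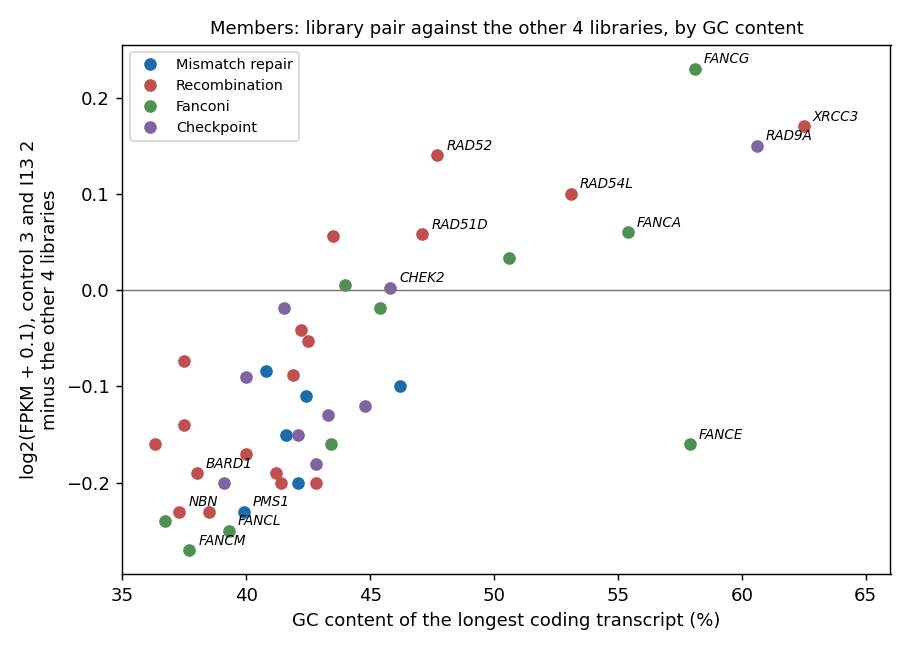
Difference of each member between the pair (control replicate 3 and I13 replicate 2) and the other 4 libraries, on the log2(FPKM + 0.1) scale, against the GC content of its longest coding transcript in percent, colored by role. Most AT-rich members such as FANCM lie below 0 and most GC-rich ones such as FANCG, XRCC3 and RAD9A above it, with FANCE as an exception.

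Genes that work with the members were at a similar place. Of 80 listed partners in mismatch repair, recombination, Fanconi repair, checkpoint signaling and end joining, 78 were tested. By limma 4 were higher and 1 was lower at an unadjusted p of 0.05, and by voom 5 were higher and 0 lower. Over all genes tested 2.55% were higher and 2.59% lower by limma, and 2.56% and 2.8% by voom. No partner passed an adjusted p by limma or by voom. The median log2 change was 0.08 for the 16 mismatch repair partners, 0.03 for the 26 recombination partners, 0.04 for the 16 Fanconi partners, 0.05 for the 17 checkpoint partners tested and -0.03 for the 7 end joining genes tested, the alternative route of break repair.

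Named by their unadjusted p, the partners were the following. UBE2T, the enzyme that hands ubiquitin to FANCL for FANCD2 and FANCI, was at 30.9 ± 2.34 FPKM in control and 35.1 ± 0.603 FPKM in I13 (SD, n = 3 each), a log2 change of 0.19 that passed the unadjusted threshold by both tests (adjusted p 0.89 by limma and 0.924 by voom). All 3 I13 libraries of UBE2T, at 35.8, 34.7 and 34.8 FPKM, were above the control libraries, at 30.2, 33.5 and 29 FPKM. The clamp PCNA (log2 change 0.12), the single-strand binding subunit RPA2 (0.13) and the phosphatase CDC25A (0.16) were higher by limma, and SFR1, a recombination mediator, was lower (-0.36). By voom CDC25A, RMI2 of the BLM complex (0.41), the break repair factor RIF1 (0.18) and the kinase WEE1 (0.20) were higher. Each adjusted p of these genes was at least 0.786 by limma and voom.

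A list of 18 proliferation genes was read alongside, since many repair genes are known to be transcribed most in cells that replicate their DNA. Of these, 16 had a fitted change above 0, against 51.8% of all genes tested. Their median was 0.05, with 0.08 between the 4 other libraries and 0.0027 within the pair. By limma PCNA, MCM3 (log2 change 0.12) and E2F1 (0.17) were higher at the unadjusted threshold, where 2.55% of all genes were, and 0 were lower, and by voom 1 was higher, E2F1. The part of cell division in the members' values was not tested.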

How the data were processed

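Messenger RNA of 3 control and 3 I13 libraries of Kasumi-1 cells, prepared with a TruSeq Stranded mRNA kit, was sequenced by the study. The authors deposited FPKM values per Ensembl gene, and the submitters' processing notes name Trimmomatic, HISAT2, Cufflinks, HTSeq and hg38. Tool versions, the annotation release, the strand setting and any filters were not given in the sources used here. Groups and replicate numbers came from the sample titles.

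Fragments were recovered from the FPKM with exon lengths of GENCODE 29. Of 27002 genes above 0 with a length, 25773 (95.4%) came out as whole fragments in each of the 6 libraries (tolerance 0.01), 1314 more were recovered from a common step of their values, and 8 of 27095 genes above 0 were not recovered. Replicates differed by more than sampling noise, their chi-square per gene being 3.02 to 8.19. More fragments give smaller errors, and counting limits genes such as RAD50 and RAD54B most.

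The main test was limma 3.58.1 in R 4.3.3 on log2(FPKM + 0.1), with group as the term, a variance trend, two-sided p and Benjamini-Hochberg adjustment over 18726 genes with a mean of at least 0.1 FPKM. The pseudocount understates the change of low genes. Voom on the fragments was an alternative (13806 genes, mean of 10 fragments or more), and the scripts were tested on simulated data. Other alternatives changed the pseudocount, filter, scaling, trend, block and libraries used. The corrections for GC content, and voom with a block or with a term for the library pair, were added after the data were seen.

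Members, partner lists and tests were chosen with earlier results of these data known. Values in every library were given for members with an unadjusted p under 0.05 by limma or voom, for those whose groups did not overlap, for all mismatch repair members, for the highest and lowest mean of each role and for stated complex partners. Partner genes were named with an unadjusted p under 0.05, and some listed markers are not reported here. Coordinates are those of GENCODE 29 on GRCh38, and promoters are RefSeq windows on GRCh38.p14. Correlations were computed across genes as descriptions. Python 3.11.15, pandas 2.3.3 and scipy 1.17.1 were used.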

Additional observations from a re-analysis of the deposited data

How the results depend on the processing

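Under 22 alternatives, no member passed an adjusted p of 0.05 (smallest 0.201 by limma or voom), and the log2 change of every member stayed within 0.33 either way. The median of each role moved by less than its SD between single libraries, which is not the error of a median change. The 1 member called higher at an unadjusted p became 0 without a variance trend, 0 with the replicate block, 0 with a term for the library pair, 3 by voom, 4 by voom with a term for the pair, 2 without the pair and 3 with a GC correction together with the replicate block. It ranged from 0 to 4 when 1 library was left out. Members called lower, 0 in the main fit, were 1 without the library pair and 0 to 1 with 1 library left out. The cause was not tested. XRCC2 passed in 14 of the 22 alternatives. Of 943 values of single members, 17 came past the unadjusted threshold, in 9 members, and 8, all of XRCC2, lost it. Deviations of same-numbered libraries had r of 0.32, -0.38 and -0.30 over 4133 genes, and control replicate 3 correlated best with I13 replicate 2 (0.51). These values carry the difference of the library pair, so they cannot show whether the replicate numbers mark paired libraries. Voom with the replicate block called 1 member higher, and RAD51D and FANCD2, each at an unadjusted p of 0.0567 by voom, lost the call they had by voom. With the replicate block in limma the genes at an unadjusted p under 0.05 went from 963 to 862. With 3 libraries a group, the interval of every member but XRCC2 included 0 in the main fit. For those members, changes of the size fitted here could not be told from the spread. RAD50, RAD51B and RAD54B had the fewest fragments and the widest intervals.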
